A study of Mus musculus with 16 samples.

Results

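Gene expression in the femur was compared between ovariectomized mice that lacked estrogen receptor alpha in osteoclasts and ovariectomized wild-type mice, both without estrogen, across 12735 genes. The comparison rests on 8 of the 16 arrays of the series: 4 knockout mice and 4 wild-type mice, chosen by their titles. All mice were C57BL/6 females without ovaries, and the distal 5 mm of the left femur was taken 4 hours after treatment. The knockout is described as osteoclast-specific (ERaKO), the wild-type controls as given vehicle, and RNA was not pooled between mice. The labels of the knockout mice name no vehicle, which comes from the series design text. The labels state neither age, nor the composition of the vehicle, nor the driver of the deletion. As background, the published osteoclast-specific knockout of this receptor carries Cre recombinase in the cathepsin K locus. The other 8 mice, of the same genotypes, received estrogen and serve here as a second set of animals in which the genotype difference was measured.

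Estrogen receptor alpha, encoded by Esr1, is a nuclear receptor that binds estradiol and regulates transcription. Estrogen restrains bone resorption, and its loss after ovariectomy leads to more osteoclasts and to bone loss. Osteoclasts are large cells of the monocyte lineage that dissolve bone mineral and matrix, and in females deletion of the receptor from them is known to lower trabecular bone mass. The comparison asks what the receptor does in bone when circulating estrogen is low.

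The tissue was whole bone with marrow, and the markers of osteoclasts, osteoblasts, cartilage, marrow cells, muscle and fat were all measured in it. In such tissue, fewer cells of a type and less RNA per cell cannot be told apart. Values are linear signal intensities as the authors deposited them, with a 2% trimmed mean of 500 on each array. Differences are knockout minus wild type on the log2(signal + 16) scale with their standard error (SE), and folds on that scale understate the change of low genes. Titles number the mice 1 to 4, and mice 1 and 2 differ from mice 3 and 4 in every group, so this replicate set is a term in the fit. The 18S rRNA control signal, for example, was 18287 to 22592 in vehicle mice 1 and 2 and 520 to 3027 in vehicle mice 3 and 4. Wild-type vehicle mouse 2 stood apart, with a bacterial spike-in signal of 19238 against 2391 to 4634 on the other 7 vehicle arrays. Its Actb signal was 3.53 times as high at the 3' end as at the 5' end, against 1.2 to 1.5 times on the other 7, so results are also given without it. The number of arrays limits the precision.

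Esr1 itself was lower in the knockout bone. Its signals were 792, 876, 1100.2 and 1011 in wild-type mice 1 to 4 and 579.7, 627, 723 and 617 in knockout mice 1 to 4. Every knockout mouse lay below every wild-type mouse, and the means were 945 ± 138 and 637 ± 60.9 (SD, n = 4 each). The difference was −0.55 ± 0.19, with an exact two-sided permutation p of 0.0286, the smallest that 70 arrangements allow. Adjusted over the 4 genes tested this way (Esr1, Fasl, Fas and Ctsk), that permutation p was 0.114. Permuted within replicate sets, the unadjusted p was 0.0556, the smallest that 36 arrangements allow. Across all genes, limma gave Esr1 an adjusted p of 0.754, so it did not pass there. A second Esr1 probe set overlapped between the groups, at −0.48 (exact permutation p = 0.2, or 0.278 within replicate sets). The third separated them, at 189 ± 10.2 against 97.8 ± 7.08 (SD, n = 4 each) and −0.85 (exact permutation p = 0.0286, or 0.0556 within replicate sets). The labels do not say where these probe sets lie relative to the deleted part of the gene.

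Fasl, which encodes the death ligand that triggers apoptosis through its receptor Fas, was dim in both groups. Its signals were 75.6, 80.1, 67.2 and 54.3 in wild-type mice 1 to 4 and 116, 75.1, 94.1 and 104 in knockout mice 1 to 4, and the groups overlapped. The difference was 0.41 ± 0.28 (exact permutation p = 0.0857, or 0.167 within replicate sets). It was 0.21 by a second probe set (exact permutation p = 0.6, or 0.5 within replicate sets). Fas differed by 0.45 ± 0.38 (exact permutation p = 0.343, or 0.389 within replicate sets). Ctsk, the collagen-degrading protease of osteoclasts, was 5683, 5971, 12379 and 10884 in wild-type mice 1 to 4 and 4614, 5115, 11047 and 8986 in knockout mice 1 to 4. Each knockout mouse lay below the wild-type mouse of the same number, by −0.26 in mice 1 and 2 and −0.22 in mice 3 and 4. The Ctsk difference of −0.24 ± 0.21 did not pass (exact permutation p = 0.543, or 0.111 within replicate sets, where 0.0556 is the smallest possible).

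No gene passed an adjusted p of 0.05 in the fit over all 16 arrays, that is 0 of 12735 or 0% (limma). At an unadjusted p under 0.05 there were 413 genes higher (3.24%) and 417 lower (3.27%) in the knockout, together 830 or 6.52%. In 286 genes (2.25%) every knockout mouse lay above every wild-type mouse, and in 238 (1.87%) below. Without wild-type mouse 2, the count at an unadjusted p under 0.05 was 340, with 162 genes higher (1.27%) and 178 lower (1.4%). Fitted on the 8 vehicle arrays alone, where only the spread among vehicle mice is used, 13 genes passed (limma, adjusted p under 0.05), or 0.102%. Those higher in the knockout were Apol11b, Ifit1, Irak1, Irf7 and Oasl2. Those lower were Aldh1a2, Efemp1, Fabp4, Myl1, Pkia, Serpinb6e, Tnnc2 and Tnni2. Without wild-type mouse 2, that smaller fit gave 10 genes, of which 8 were among the 13: Efemp1, Ifit1, Irak1, Irf7, Myl1, Oasl2, Serpinb6e and Tnnc2. Cxcl10 and Pvalb were the other 2.

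**Figure D1:**
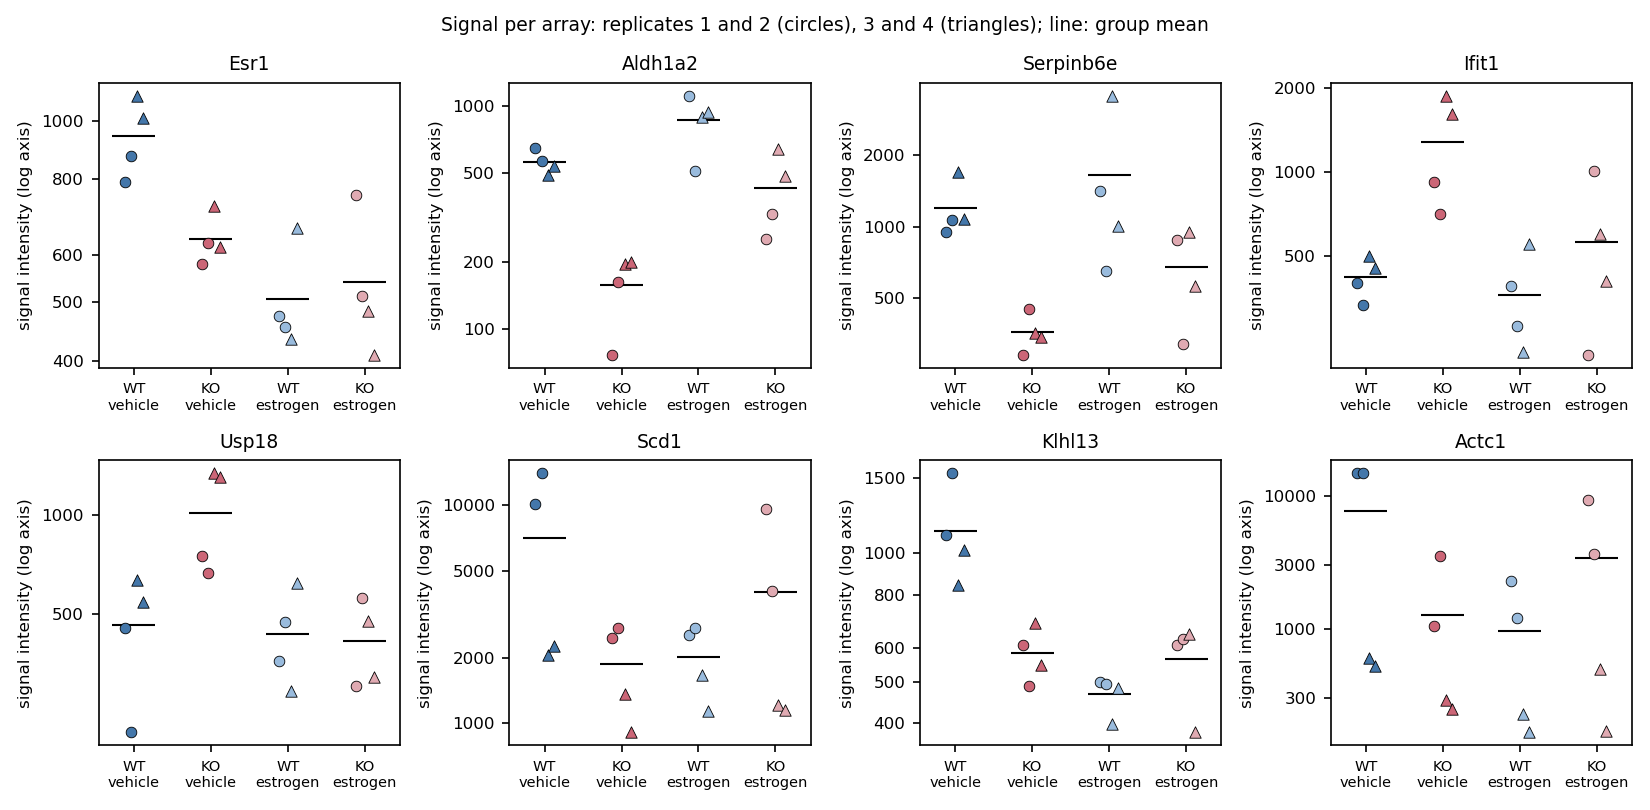
Signal intensity (log axis) of 8 genes on each array, by group, with the group mean as a line; circles are replicates 1 and 2 and triangles replicates 3 and 4. In Esr1, Aldh1a2, Serpinb6e and Klhl13 all 4 knockout vehicle mice sit below all 4 wild-type vehicle mice, in Ifit1 and Usp18 all sit above, and in Scd1 and Actc1 the groups overlap across the replicate sets.

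The smallest p belonged to Aldh1a2, which encodes a retinaldehyde dehydrogenase that makes retinoic acid. Its signals were 648, 569, 494 and 541 in wild-type mice 1 to 4 and 76.3, 162, 195 and 199 in knockout mice 1 to 4. The groups did not overlap in either replicate set, and the lowest signal was that of knockout mouse 1. The difference was −1.80 ± 0.27, or 3.49-fold lower in the knockout (limma, adjusted p = 0.0599 over 16 arrays and 0.0409 over the 8 vehicle arrays). Without wild-type mouse 2 it was −1.72, with an adjusted p of 0.426 by limma over the remaining 15 arrays.

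Serpinb6e, a member of the serine protease inhibitor family that the array may not tell apart from its close paralogs, had signals of 954, 1065, 1697 and 1080.1 in wild-type mice 1 to 4. In knockout mice 1 to 4 it had 289.7, 452, 359.6 and 345, all below the lowest wild-type mouse. The difference was −1.67 ± 0.38, or 3.17-fold (limma, adjusted p = 0.754 over 16 arrays and 0.0398 over the 8 vehicle arrays). Efemp1, which encodes the matrix glycoprotein fibulin-3, had 876, 828, 229 and 267 in wild-type mice 1 to 4 and 395, 318, 105 and 71.1 in knockout mice 1 to 4. The knockout mice were lower within each replicate set, although knockout mice 1 and 2 lay above wild-type mice 3 and 4. The Efemp1 difference was −1.29 ± 0.39 (limma, adjusted p = 0.754 over 16 arrays and 0.0409 over the 8 vehicle arrays).

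The other genes named for the smallest p among those lower in the knockout did not pass over 16 arrays (limma, adjusted p between 0.696 and 0.754). Klhl13, a substrate adaptor of a cullin ubiquitin ligase, had 1106, 1540.4, 843 and 1016 in wild-type mice 1 to 4 and 609, 487, 686 and 548 in knockout mice 1 to 4. These groups did not overlap, and the difference was −0.91 ± 0.19. Sash1, a signalling scaffold, differed by −0.69 ± 0.18, Nr2c1, an orphan nuclear receptor, by −0.76 ± 0.20, and Chst1, a sulfotransferase that acts on keratan sulfate, by −0.81 ± 0.22. Ephx2, which encodes soluble epoxide hydrolase, differed by −0.88 ± 0.23, Loxl1, which crosslinks elastin and collagen, by −0.74 ± 0.19, Washc3, a subunit of the WASH complex of endosomes, by −0.72 ± 0.20, and the calcium-binding S100a16 by −0.69 ± 0.20. Ttr, which encodes the thyroid hormone and retinol carrier transthyretin, had the widest spread, at 169.9, 2157, 549 and 178 in wild-type mice 1 to 4 and 23.5, 5.76, 92.4 and 71.7 in knockout mice 1 to 4. All knockout mice lay below the lowest wild-type mouse, yet wild-type mouse 2 was far above the others, and the difference went from −3.10 ± 0.88 to −2.47 without it. Of these 15 genes, 10 had no overlap between the groups, beside 1.87% of all genes with every knockout mouse below. All 15 had the same sign in both replicate sets. The rule chose them by p, so these counts describe the choice. With the mean over the probe sets of a gene, some were much smaller: Klhl13 was −0.40, Sash1 −0.21, Nr2c1 −0.14 and Washc3 −0.14.

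Genes of the interferon response were higher in the knockout. Type I and type II interferons are antiviral and immune cytokines whose receptors act through STAT transcription factors on genes that carry an interferon-stimulated response element (ISRE). All 15 tested members of the 18 on the list had a higher mean in the knockout, 12 of them at an unadjusted p under 0.05 (limma) and 0 at an adjusted p under 0.05. Their median difference was 0.81, beside 0.00 over all 12735 genes, of which 3.24% were higher at an unadjusted p under 0.05. It was 0.61 in mice 1 and 2, 1.16 in mice 3 and 4, and 0.77 without wild-type mouse 2. In that fit 6 of the 15 were at an unadjusted p under 0.05 (limma), beside 1.27% of all genes higher. The list was chosen with earlier results of these data known.

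The sequences below are the 250 bases before the start sites of Ifit1, Cxcl10, Irgm1 and Gbp2, the list members of smallest p whose printed stretch holds an ISRE core, shown to let a reader see where it lies. They are from RefSeq (GRCm38.p6), written 5' to 3' on the gene's strand, at chr19:34640639-34640888 on the plus strand for Ifit1, chr5:92348890-92349139 on the minus strand for Cxcl10, chr11:48871421-48871670 on the minus strand for Irgm1 and chr3:142620413-142620662 on the plus strand for Gbp2. Capitals mark the core GAAANNGAAA or its reverse complement.
Ifit1: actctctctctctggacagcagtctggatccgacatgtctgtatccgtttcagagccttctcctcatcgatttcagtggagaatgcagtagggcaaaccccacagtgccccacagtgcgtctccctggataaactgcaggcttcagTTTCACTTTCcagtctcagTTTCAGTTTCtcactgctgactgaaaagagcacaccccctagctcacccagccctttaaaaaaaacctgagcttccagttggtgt
Cxcl10: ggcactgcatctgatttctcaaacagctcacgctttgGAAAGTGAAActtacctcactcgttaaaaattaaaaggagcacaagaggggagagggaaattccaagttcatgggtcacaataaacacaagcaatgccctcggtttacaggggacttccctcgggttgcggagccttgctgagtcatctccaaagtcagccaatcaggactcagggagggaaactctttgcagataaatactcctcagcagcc
Irgm1: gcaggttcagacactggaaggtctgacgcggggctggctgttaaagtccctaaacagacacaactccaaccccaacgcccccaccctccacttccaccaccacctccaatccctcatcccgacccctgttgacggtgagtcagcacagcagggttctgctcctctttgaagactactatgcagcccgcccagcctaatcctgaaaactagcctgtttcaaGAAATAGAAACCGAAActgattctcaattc
Gbp2: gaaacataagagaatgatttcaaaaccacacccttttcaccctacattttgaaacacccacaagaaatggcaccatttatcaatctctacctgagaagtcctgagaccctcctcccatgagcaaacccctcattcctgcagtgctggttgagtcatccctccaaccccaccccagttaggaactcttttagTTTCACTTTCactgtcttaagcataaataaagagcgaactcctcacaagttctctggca
The Ifit1 stretch holds 2 matches, beginning 104 and 85 bases before the start, and the Irgm1 stretch holds 2 overlapping ones, beginning 30 and 24 bases before it. Over windows of 300 bases, 250 before and 50 after the start, read on both strands, the core was found in 8 of the 12 tested list members with a RefSeq promoter (66.7%). It was found in 388 of 10266 tested genes with a promoter (3.78%). A full estrogen response element, GGTCANNNTGACC, was found in 2 of the 10266 (0.0195%) and in 0 of the 12. The list was made of known interferon response genes, so its share of ISRE cores describes the list and not the knockout. Among the 15 genes of smallest p higher in the knockout, the core was found in 1 of 12 with a promoter (8.33%). Among the 15 lower, it was found in 1 of 9 (11.1%). A match describes the letters only.

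Ifit1, an antiviral protein that binds foreign RNA, had signals of 402, 335, 502 and 454 in wild-type mice 1 to 4 and 919, 711, 1871 and 1619 in knockout mice 1 to 4. Every knockout mouse lay above every wild-type mouse, with the highest values in knockout mice 3 and 4. The difference was 1.47 ± 0.36, or 2.77-fold (limma, adjusted p = 0.754 over 16 arrays and 0.0398 over the 8 vehicle arrays). Irf7, the transcription factor that amplifies interferon production, had 895, 924, 877 and 1281 in wild-type mice 1 to 4 and 1687, 1617, 2289 and 2504 in knockout mice 1 to 4. These groups did not overlap either, at 1.01 ± 0.30 (limma, adjusted p = 0.754 over 16 arrays and 0.0409 over the 8 vehicle arrays). Usp18, which removes the ubiquitin-like protein ISG15 from its targets and dampens the interferon receptor, had 454, 219, 633 and 546 in wild-type mice 1 to 4 and 749, 665, 1342 and 1308 in knockout mice 1 to 4. The knockout mice again lay above all wild-type mice, at 1.13 ± 0.29, and at 0.88 without wild-type mouse 2, the lowest of them (limma, adjusted p = 0.754 over 16 arrays and 0.0793 over the 8 vehicle arrays).

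Oasl2, of the oligoadenylate synthetase family, had 655, 483, 1319 and 1055 in wild-type mice 1 to 4 and 1572, 1086, 2533 and 2789 in knockout mice 1 to 4. The knockout was higher within each replicate set, by 1.19 and 1.16, while knockout mouse 2 lay below wild-type mouse 3. The Oasl2 difference was 1.18 ± 0.35 (limma, adjusted p = 0.754 over 16 arrays and 0.0409 over the 8 vehicle arrays). Cxcl10, a chemokine that attracts activated T and NK cells, had 26.8, 177, 207 and 218 in wild-type mice 1 to 4 and 192, 209, 611 and 701 in knockout mice 1 to 4. The groups overlapped, with knockout mice 3 and 4 far above the rest, at 1.40 ± 0.48. The other members ranged from 0.31 ± 0.22 for Rsad2, the antiviral enzyme viperin, to 1.03 ± 0.40 for Rtp4, with Mx1, a dynamin-like GTPase, at 0.81 ± 0.29 and the RNA sensor Ifih1 at 0.54 ± 0.21, or 0.31 without wild-type mouse 2. With the mean over its probe sets, Rtp4 was at 0.62. The replicate sets differed in size for some of them: Gbp2, a guanylate-binding protein, was 0.09 in mice 1 and 2 and 1.63 in mice 3 and 4.

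**Figure D2:**
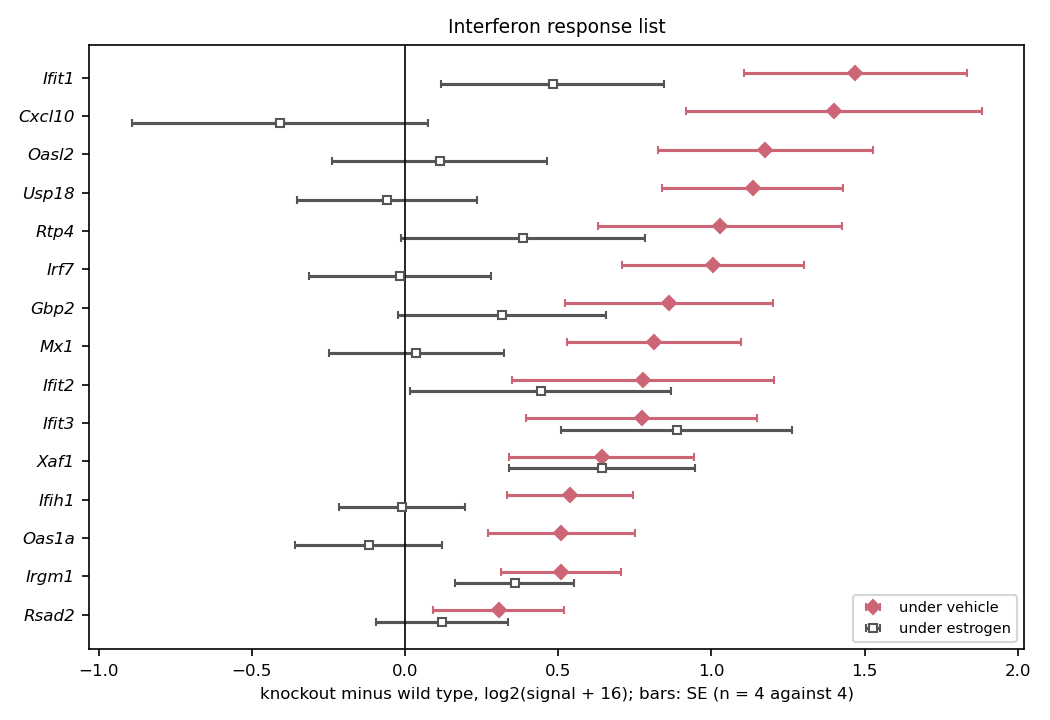
Knockout minus wild type on the log2(signal + 16) scale for the 15 tested interferon response genes, under vehicle (filled diamonds) and under estrogen (open squares), with SE bars (n = 4 against 4). All 15 vehicle differences lie above 0, from 0.31 for Rsad2 to 1.47 for Ifit1, while the estrogen differences lie on both sides of 0.

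Markers of lymphocytes and monocytes, which respond to interferon, were measured beside these genes. Gzma, the granzyme of cytotoxic T and NK cells, had 327, 375, 385 and 441 in wild-type mice 1 to 4 and 552, 398, 1193 and 749 in knockout mice 1 to 4. It differed by 0.79 ± 0.32, with knockout mouse 2 inside the wild-type range. The T lymphocyte and NK cell list had 9 of 12 tested members higher, 1 of them at an unadjusted p under 0.05 (limma), and a median of 0.26. Over all genes, 50.4% were higher and 3.24% higher at that level. In 7 of the 12 the sign was the same in both replicate sets, beside 6948 of all 12735 genes. The list median was 0.18 without wild-type mouse 2. The defining markers of the list (Cd3e, Cd8a, Nkg7 and Gzma) summed to 2233 to 2894 in wild type and 2766 to 3893 in the knockout. Fcgr1, an Fc receptor of monocytes, differed by 0.51 ± 0.21, and the monocyte and macrophage list had a median of −0.05. Cxcl9, a chemokine related to Cxcl10, differed by 1.58 ± 0.63. Fcgr1 (0.44) and Cxcl9 (1.39) were no longer at an unadjusted p under 0.05 (limma) without wild-type mouse 2. The part of these cells in the interferon difference was not tested.

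Of the 15 genes named for the smallest p among those higher in the knockout, Ifit1 and Usp18 are list members and none passed over 16 arrays (limma, adjusted p = 0.754 for each). Gch1, the first enzyme of tetrahydrobiopterin synthesis, had 961, 664, 809.9 and 912 in wild-type mice 1 to 4 and 1552, 1932, 1177 and 1311 in knockout mice 1 to 4, without overlap, at 0.81 ± 0.20. Dtx3l, a ubiquitin ligase induced by interferon, was 1016, 1060.1, 1149 and 1049.8 in wild-type mice 1 to 4 and 1421, 1385, 1521 and 1530.2 in knockout mice 1 to 4. This was a small difference, 0.45 ± 0.12, with little spread within either group and no overlap. Ube2l6, the conjugating enzyme for ISG15, differed by 0.93 ± 0.26, Parp14, an ADP-ribosyltransferase induced by interferon, by 0.81 ± 0.23, and the pyrimidine nucleotidase Nt5c3 by 0.62 ± 0.17.

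Krt6a, a keratin of stressed epithelium, had 30.8, 40, 160.3 and 234 in wild-type mice 1 to 4 and 273, 248, 334 and 223 in knockout mice 1 to 4. Its difference of 1.45 ± 0.34 was carried by mice 1 and 2 (2.43, against 0.46 in mice 3 and 4). With the mean over the probe sets of the gene, Krt6a differed by 0.21 (limma, unadjusted p = 0.334). Cilp2, a cartilage matrix protein, differed by 1.37 ± 0.39, Susd3 by 1.33 ± 0.38 and Fam71b by 1.63 ± 0.39, all 3 from low signals. Susd3 had 19 in wild-type mouse 2 against 66.8 to 146 in the other wild-type mice, and its difference was 0.86 without that mouse and 0.52 with the mean over its probe sets. Paxip1, a subunit of histone methyltransferase complexes, differed by 0.62 ± 0.17, Klhl25, a cullin ligase adaptor, by 0.68 ± 0.19, Macir, a regulator of macrophage metabolism, by 0.53 ± 0.14 and the RING finger gene Rnf10 by 0.56 ± 0.16, or 0.16 with the mean over its probe sets. In 7 of the 15 the groups did not overlap, beside 2.25% of all genes with every knockout mouse above. The rule chose these genes by p, so this count describes the choice. Among the genes that passed in the fit of 8 arrays, Irak1, a kinase of interleukin-1 and Toll-like receptor signalling, had 1246, 1102, 1082 and 1129.6 in wild-type mice 1 to 4 and 1886, 1900.0, 1934 and 2034 in knockout mice 1 to 4. This separation under vehicle gave 0.76 ± 0.34 over 16 arrays (limma, adjusted p = 0.754) and an adjusted p of 0.0409 by limma over the 8 vehicle arrays. Apol11b had 3261, 2963, 2155 and 2951 in wild-type mice 1 to 4 and 8302, 6014, 4665 and 4826 in knockout mice 1 to 4, also without overlap, at 1.04 ± 0.39. Both genes spread widely in the mice given estrogen. There Irak1 ran from 472 to 2430 in wild type and from 892 to 2323 in the knockout. Apol11b ran from 1004 to 5093 and from 1211 to 7654.

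Skeletal muscle genes were lower in the knockout and also differed widely between replicate sets. Of 20 tested members, 19 had a lower mean in the knockout, 14 of them at an unadjusted p under 0.05 (limma), beside 3.27% of all genes, and the median difference was −1.36. The 20 signals summed to 416538, 636414, 35424 and 26482 in wild-type mice 1 to 4 and to 110395, 198112, 15947 and 12565 in knockout mice 1 to 4. The knockout mice were lower within each replicate set, while the sets themselves lay further apart than the genotypes. The median was −1.63 in mice 1 and 2, −0.99 in mice 3 and 4 and −1.27 without wild-type mouse 2.

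Myl1, a myosin light chain of fast fibres, had 32845, 48968, 3497 and 2246 in wild-type mice 1 to 4 and 8417, 15209, 907 and 557 in knockout mice 1 to 4. Its difference was −1.89 ± 0.55, and it was among the genes that passed over the 8 vehicle arrays, as were the fast troponins Tnnc2 (−1.67 ± 0.58) and Tnni2 (−1.68 ± 0.57) (limma, adjusted p = 0.0409, 0.0425 and 0.0425). Casq1, the calcium store protein of the sarcoplasmic reticulum, differed by −1.37 ± 0.41, and the calcium buffer Pvalb by −1.68 ± 0.50. The exception was Myh2, a myosin heavy chain, at 0.16 ± 0.63.

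Several genes of the smallest p outside the list are known from muscle and followed the same arrays. Actc1, cardiac alpha-actin, had 14766, 14753, 600.3 and 521 in wild-type mice 1 to 4 and 1059, 3517, 290.3 and 249.9 in knockout mice 1 to 4, at −1.97 ± 0.45. Pkia, an inhibitor of protein kinase A, had 2169, 1779, 100.2 and 99.4 in wild-type mice 1 to 4 and 315, 378, 12.3 and 43 in knockout mice 1 to 4, at −1.98 ± 0.52. Stac3, which takes part in excitation-contraction coupling, differed by −1.12 ± 0.32. All were lower in the knockout within each replicate set. The mitochondrial respiratory chain list was also lower, with 17 of 17 tested members below 0 and a median of −0.28. At an unadjusted p under 0.05 (limma) 3 members were lower, beside 3.27% of all genes. These were Cox8b (−2.05 ± 0.65), Cox6a2 (−1.35 ± 0.53) and Cox7a1 (−1.21 ± 0.54), subunit isoforms known from muscle. In mice 3 and 4 the list median was −0.03. Without wild-type mouse 2 it was −0.14, with 3 of the 17 members above 0. In that fit 1 member was lower at an unadjusted p under 0.05 (limma), beside 1.4% of all genes. Cox6a2 (−1.01) and Cox7a1 (−0.89) were no longer at that level. How far the amount of muscle in the sample accounts for these differences was not tested.

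Adipocyte genes were lower in 6 of 8 tested members, all 6 at an unadjusted p under 0.05 (limma), beside 3.27% of all genes, with a median of −0.77. Without wild-type mouse 2 the median was −0.70 and 3 of the 8 were lower at that level, beside 1.4% of all genes. Scd1, the desaturase that makes monounsaturated fatty acids, had 10043, 13959, 2050.0 and 2256 in wild-type mice 1 to 4 and 2472, 2735, 1357 and 913 in knockout mice 1 to 4. The knockout was lower within each set, by −2.18 in mice 1 and 2 and −0.94 in mice 3 and 4, at −1.56 ± 0.32 over all (limma, adjusted p = 0.696). Fabp4, the fatty acid carrier of adipocytes, had 18616, 20473, 4214 and 5245 in wild-type mice 1 to 4 and 7369, 8219.8, 3010.0 and 2709 in knockout mice 1 to 4. Its difference was −1.02 ± 0.39 (limma, adjusted p = 0.754 over 16 arrays and 0.0425 over the 8 vehicle arrays). Car3, a carbonic anhydrase abundant in fat and muscle, differed by −1.08 ± 0.33 and the adipokine Adipoq by −0.50 ± 0.20. With the mean over their probe sets, Fabp4 was −0.29 and Car3 −0.70. The list median was −1.09 in mice 1 and 2 and −0.23 in mice 3 and 4, and the larger difference lay in the set with the higher muscle signals. The adipocyte and muscle sums put the 8 vehicle arrays in the same order, and their parts were not separated.

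**Figure D3:**
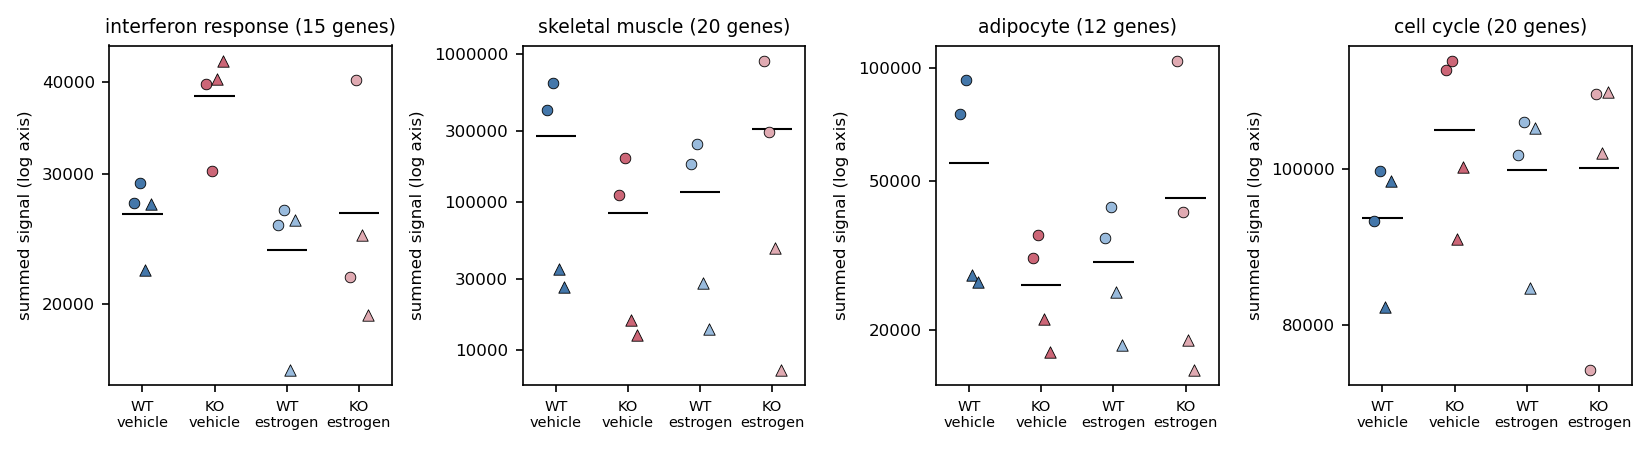
Summed signal (log axis) of the measured members of 4 gene lists on each array, by group, with the group mean as a line; circles are replicates 1 and 2 and triangles replicates 3 and 4. The interferon sum was 22181 to 29127 in wild-type vehicle mice and 30236 to 42678 in knockout vehicle mice, and the muscle sum was lower in the knockout vehicle mice within each replicate set.

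Genes of the collagen and crosslinking list leaned the same way with smaller differences. All 18 tested members of this list had a lower mean in the knockout, 3 at an unadjusted p under 0.05 (limma), beside 3.27% of all genes, with a median of −0.26. The collagens among the cell type markers are not on this list and had higher means. These were Col1a1 (0.02 ± 0.13), Col2a1 (0.64 ± 0.65) and Col10a1 (1.15 ± 0.92), none at an unadjusted p under 0.05 (limma). In 11 of the 18 list members the sign was the same in both replicate sets, beside 6948 of all 12735 genes. Of the 18, 4 were higher in mice 1 and 2 and 3 in mice 3 and 4. Loxl1 had 1749, 2618, 1225 and 1382 in wild-type mice 1 to 4 and 865, 1028, 1133 and 954 in knockout mice 1 to 4, without overlap. Col6a1, a chain of the microfibrillar collagen around cells, differed by −0.47 ± 0.20 and also did not overlap, with the 3 non-overlapping members of the list completed by Col6a2 (−0.43 ± 0.25), beside 1.87% of all genes. Col6a1 was −0.39 and no longer at an unadjusted p under 0.05 (limma) without wild-type mouse 2. The sum over the list was 77380 to 104193 in wild type and 57042 to 78189 in the knockout.

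Osteocyte genes were lower in 10 of 11 tested members, 1 at an unadjusted p under 0.05 (limma), with a median of −0.26. Fbln7, a fibulin, differed by −0.82 ± 0.34. The IGF axis had 12 of 13 tested members lower, 2 at an unadjusted p under 0.05, and a median of −0.33. Over all genes, 50.4% were higher, and 3.27% were lower at that level. Without wild-type mouse 2 the medians were −0.25 for osteocyte genes and −0.24 for the IGF axis. In each list, 6 members had the same sign in both replicate sets, beside 6948 of all 12735 genes. The 2 IGF axis genes at an unadjusted p under 0.05 were Irs1, the adaptor of the insulin and IGF receptors (−0.44 ± 0.20), and Ghr, the growth hormone receptor (−0.74 ± 0.34). The Ghr difference was −1.54 in mice 1 and 2 and 0.06 in mice 3 and 4. Inhbb, which encodes the activin beta-B chain, had 321, 323, 322 and 414 in wild-type mice 1 to 4 and 68.8, 76.6, 363 and 222 in knockout mice 1 to 4, so it too was carried by mice 1 and 2 (−1.14 ± 0.40, or −0.67 with the mean over its probe sets). Tgfb3 differed by −0.59 ± 0.24, the Wnt ligand Wnt4 by −0.43 ± 0.15 and the mitophagy receptor Bnip3 by −1.04 ± 0.35, all at an unadjusted p under 0.05 and none past the adjusted threshold (limma). Ghr (−0.50) and Tgfb3 (−0.48) were no longer at that level without wild-type mouse 2, and Wnt4 was −0.17 with the mean over its probe sets.

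The osteoclast list lay closer to 0. Of 20 tested members 15 had a lower mean, 1 at an unadjusted p under 0.05 (limma), beside 3.27% of all genes, and the median was −0.10. That member was Dcstamp, which osteoclast precursors need to fuse, with 536, 601, 832 and 655 in wild-type mice 1 to 4 and 365, 257, 764 and 581 in knockout mice 1 to 4 (−0.50 ± 0.21). The groups overlapped, and the difference was −0.85 in mice 1 and 2 and −0.14 in mice 3 and 4. It was −0.40 without wild-type mouse 2, and 0 of the 20 osteoclast genes were then at an unadjusted p under 0.05 (limma). In 12 of the 20 the sign was the same in both replicate sets, beside 6948 of all 12735 genes. The list median was 0.00 in mice 1 and 2 and −0.15 in mice 3 and 4. Acp5, the acid phosphatase of osteoclasts, differed by −0.12 ± 0.21 and Mmp9, a gelatinase, by 0.17 ± 0.21. The osteoblast list had a median of −0.03, the RANKL, osteoprotegerin and M-CSF list −0.14, the Fas and death receptor list 0.19 and the estrogen response list −0.07, with 0, 0, 0 and 1 of 12, 13, 11 and 25 tested members at an unadjusted p under 0.05. Over all genes, 6.52% were at that level in either direction.

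Most genes of the erythroid and cell cycle lists had higher means in the knockout. The erythroid list had 16 of 18 tested members higher, 3 at an unadjusted p under 0.05 (limma), with a median of 0.43. Over all genes, 50.4% were higher and 3.24% higher at that level. The erythroid median was 0.35 without wild-type mouse 2, and 0 of the 18 were at an unadjusted p under 0.05. The means of the erythroid markers were split. Alas2 (0.38 ± 0.20) and Epor (0.31 ± 0.27) were higher, while Hba-a1 (−0.45 ± 0.32) and Slc4a1 (−0.23 ± 0.27) were lower. Hba-a1 was dim, at 67.9 to 208 on the vehicle arrays. Slc4a1 was 72160 in wild-type mouse 2, against 17246 to 31356 in the other wild-type mice and 21616 to 36187 in the knockout. Its lower mean in the knockout leaned on that mouse. None of these 4 was at an unadjusted p under 0.05 (limma). Their sums overlapped, at 30765 to 90479 in wild type and 40537 to 67271 in the knockout, and the sum of 90479 was that of wild-type mouse 2. Trim10, needed for terminal red cell differentiation, had 4382, 3199.9, 2312 and 3474 in wild-type mice 1 to 4 and 6797, 6485, 3498 and 5769.6 in knockout mice 1 to 4 (0.74 ± 0.30). Knockout mouse 3 lay within the wild-type range. The cell cycle list had 19 of 20 tested members higher, 3 at an unadjusted p under 0.05 (3.24% of all genes), with a median of 0.27. Leaving out wild-type mouse 2 gave a median of 0.23, with 1 member higher at that level, beside 1.27% of all genes. Top2a, the topoisomerase of dividing cells, had 5849, 4579, 5745 and 6156 in wild-type mice 1 to 4 and 7823, 8445, 6751 and 6934 in knockout mice 1 to 4, without overlap (0.43 ± 0.17). It was 0.34 without wild-type mouse 2 and 0.0018 with the mean over its probe sets. The cell cycle median was 0.38 in mice 1 and 2 and 0.10 in mice 3 and 4. Ikbke, a kinase of the interferon and NF-kappaB pathways, differed by 0.77 ± 0.26, and Birc3, an inhibitor of apoptosis induced by NF-kappaB, by 0.40 ± 0.19, or 0.32 and above an unadjusted p of 0.05 without wild-type mouse 2.

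Cartilage and B lymphocyte precursor genes differed in opposite directions in the replicate sets. The cartilage median was 0.92 in mice 1 and 2 and −0.82 in mice 3 and 4. Only 1 of 19 tested members had the same sign in both, beside 6948 of all 12735 genes. Col10a1, the collagen of hypertrophic cartilage, had 418, 101, 9151 and 8374 in wild-type mice 1 to 4 and 2056, 1908, 6369 and 3765 in knockout mice 1 to 4. The B lymphocyte precursor median was 0.50 in mice 1 and 2 and −0.64 in mice 3 and 4. A pooled median near 0 for these lists (0.08 and −0.06) therefore averages opposite differences. The pooled medians were −0.17 and −0.24 without wild-type mouse 2.

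**Figure D4:**
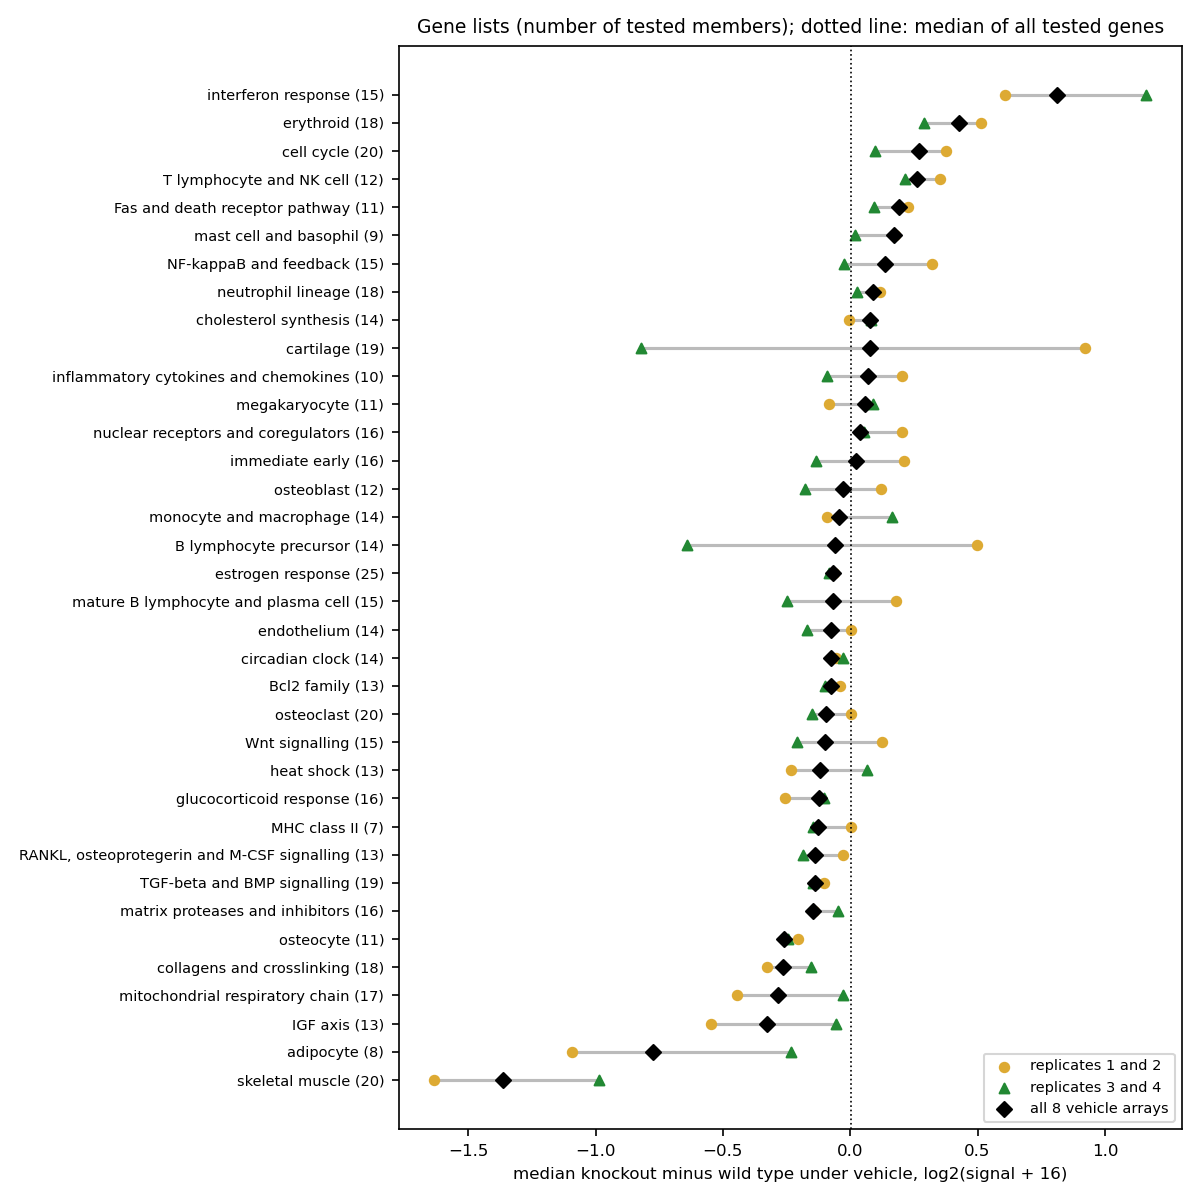
Median knockout minus wild type under vehicle on the log2(signal + 16) scale for each gene list, over all 8 vehicle arrays (diamonds), mice 1 and 2 (circles) and mice 3 and 4 (triangles); the dotted line is the median of all tested genes. The interferon response list lies highest at 0.81 and the skeletal muscle list lowest at −1.36, both on the same side of 0 in each replicate set.

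The same genotype difference was measured in the 8 mice given estrogen, which share no array with the vehicle comparison. Spike-in signals were high there too in wild-type mouse 2 (11515) and knockout mouse 1 (10472.5). There, 1253 genes (9.84%) had an unadjusted p under 0.05 and 0 passed after adjustment (limma). The difference between the vehicle and estrogen genotype differences had an unadjusted p under 0.05 in 1536 genes (12.1%), and again 0 passed. Of the 15 genes of smallest p that were higher under vehicle, 6 had the same sign under estrogen, and of the 15 lower, 5 did. At an unadjusted p under 0.05 (limma) in the same direction these were Cilp2 (1.37 ± 0.39), Aldh1a2 (−1.02 ± 0.27) and Serpinb6e (−1.09 ± 0.38). In the opposite direction at that level were Stac3 (1.24 ± 0.32), Ephx2 (0.63 ± 0.23), Actc1 (1.18 ± 0.45) and Pkia (1.27 ± 0.52). The difference between treatments was at that level in 11 of the 15 higher and 12 of the 15 lower genes. The choice of these genes by their vehicle p enters that count.

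Aldh1a2 under estrogen had 1115, 513, 892 and 941 in wild-type mice 1 to 4 and 253, 329, 644 and 487 in knockout mice 1 to 4. The knockout mean was again lower, with knockout mouse 3 above wild-type mouse 2 (limma, unadjusted p = 0.00168, adjusted p = 0.359). The difference was smaller than under vehicle by 0.78 ± 0.39, which did not pass (limma, adjusted p = 0.433). Serpinb6e under estrogen had 1414, 653, 3557 and 1011 in wild-type mice 1 to 4 and 881, 323, 949.7 and 567 in knockout mice 1 to 4, lower in the knockout for each number but with overlap.

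The interferon response list had a median of 0.12 under estrogen. At an unadjusted p under 0.05 (limma) 2 of 15 members were higher there, beside 705 of all 12735 genes. The difference between treatments was at that level in 4 of 15, beside 12.1% of all genes. Irf7, for example, differed by −0.02 ± 0.30 under estrogen against 1.01 ± 0.30 under vehicle. The skeletal muscle list turned sign, with a median of 0.63 under estrogen. Between treatments 17 of its 20 members differed at an unadjusted p under 0.05 (limma), beside 12.1% of all genes. Knockout estrogen mouse 1 had the highest muscle sum of the series, 891102. The collagen list turned sign too, at 0.54 under estrogen. Its difference between treatments was at an unadjusted p under 0.05 (limma) in 11 of 18 members, beside 12.1% of all genes. Esr1 did not follow its vehicle difference, at 0.07 ± 0.19 under estrogen (limma, adjusted p = 0.947), with signals of 475, 456, 434 and 664 in wild-type mice 1 to 4 and 753, 513, 484 and 409 in knockout mice 1 to 4.

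**Figure D5:**
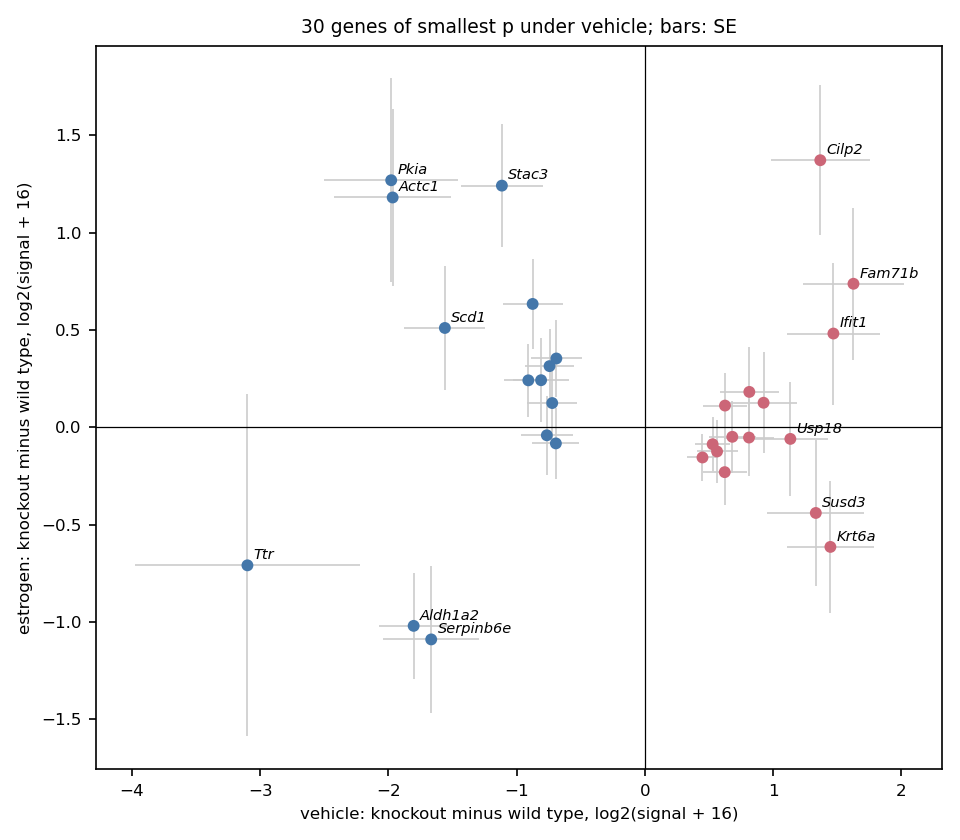
Knockout minus wild type under estrogen (vertical axis) against the same difference under vehicle (horizontal axis), both on the log2(signal + 16) scale with SE bars, for the 30 named genes of smallest p under vehicle. Aldh1a2 and Serpinb6e lie low on both axes and Cilp2 high on both, while Actc1, Pkia and Stac3 lie below 0 under vehicle and above 0 under estrogen.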

How the data were processed

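Total RNA of 16 femur samples was hybridized to Affymetrix mouse arrays, 1 per mouse. Each deposited value is the linear signal intensity of a probe set. The authors made these intensities with GCOS, according to the submitters' processing notes. Its version and background steps: not given in the sources used here. They were used without further normalization, as the 2% trimmed mean was 500 on each array. Of 45101 probe sets, 34945 carried 1 gene symbol in the platform annotation, 932 several and 9160 none, and 34741 matched the RefSeq gene table. For each of 18193 genes the probe set taken had the highest mean log2(signal + 16), and the 30% of lowest mean were left out, which left 12735 above a signal of about 109. Fasl lay under this filter and was fitted without it.

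Group means and the replicate set were fitted over 16 arrays with limma 3.58.1 in R 4.3.3 (11 residual degrees of freedom, empirical Bayes with a variance trend), with two-sided p-values adjusted by Benjamini-Hochberg over all tested genes. The fit on the 8 vehicle arrays had 5. An exact two-sided permutation test of Esr1, Fasl, Fas and Ctsk was run with Python 3.11.15, over 70 arrangements, or 36 within replicate sets. The scripts were tested on simulated data. P-values measure the spread between single mice.

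Same-numbered arrays of different groups correlated in their deviations from the group means in all 24 pairs, between 0.178 and 0.593, which suffices for pairing by the rule used (over 0.1). Arrays of the same set but another number correlated as much (median 0.354 against 0.314), and with the set removed the same-number correlations ran from −0.175 to 0.296. The labels do not say what a number marks.

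The comparison, the 36 gene lists and the rule for named genes were chosen with earlier results of these data known. Named were the 15 genes of smallest p in each direction, 2 members per list, and Esr1, Fasl, Fas and Ctsk, with predicted genes (2 among the 30 of smallest p) only counted. Further list members and the genes that passed over 8 arrays were named after their values were seen. The lists hold 597 distinct genes, of which 547 were on the array and 499 above the filter, and only these 499 were counted as tested. Lists are described by counts and medians, with no set test. Alternatives were other pseudocounts, filters, normalization, weights, array subsets and probe set summaries.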

Additional observations from a re-analysis of the deposited data

Results flagged for a closer look

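In groups of 4 mice, a mouse was picked out when its gap to the nearest other mouse, as a share of the group's range, exceeded the critical value of Dixon's test. This was examined in 278 groups for 139 genes and flagged 13, where chance alone flags about 1 in 20. Wild-type vehicle mouse 2 held 7 of the 16 values picked out, array controls included.

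In that mouse the spike-in signal was 19238 against 2391 to 4634 in the other wild-type vehicle mice, and the 3' to 5' Actb ratio was 3.53 against 1.2 to 1.5. Its Csf3r signal was 927 against 2241 to 2675, Parp14 433 against 698 to 750.5 and Cxcl12 7896 against 8922 to 9042, all the lowest of the group. Its Fkbp5 signal was 1461 against 892 to 954 and Sash1 2629.8 against 2069 to 2141, both the highest. Without this mouse the Parp14 difference went from 0.81 to 0.63 and that of Csf3r from 0.59 to 0.22, while that of Fkbp5 went from 0.44 to 0.61.

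Among interferon response genes, Cxcl10 was 26.8 in wild-type vehicle mouse 1 against 177 to 218 in the others, and Irf7 was 1281 in wild-type vehicle mouse 4 against 877 to 924, which is toward the knockout values. Inhbb was 414 in wild-type vehicle mouse 4 against 321 to 323. In the knockout vehicle group, mouse 4 had the highest Ikbke, 514 against 252 to 282, and Kit, 1144 against 871 to 913. Knockout mouse 3 had the highest Mitf, 445 against 284 to 304, and Pdpn, 911 against 629.9 to 657. Knockout mouse 2 had the lowest Csf1r, 8269 against 10414 to 10741, and knockout mouse 1 had a spike-in signal of 4417 against 2474 to 2705.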

How the results depend on the processing

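The count of genes that passed under vehicle (limma, adjusted p under 0.05), 0 over 16 arrays, was 13 over the 8 vehicle arrays, 10 over these without wild-type mouse 2 (chosen after seeing the data), 3 with array quality weights (Aldh1a2, Scd1 and Serpinb6e) and 1 with the lowest 50% left out (Aldh1a2). It was 0 in each fit that left out 1 vehicle mouse, with 340 to 1062 genes at an unadjusted p under 0.05, the lowest without wild-type mouse 2. With the replicate number as a replicate block it was also 0 (750 at an unadjusted p under 0.05; smallest adjusted p 0.248), and the block changed no call. The count of genes whose genotype difference differed between treatments was 4 within replicates 1 and 2, against 0 over 16 arrays. The adipocyte median of −0.77 was −0.43 with the mean over probe sets and −0.23 within replicates 3 and 4. Esr1 lay between −0.46 and −0.65 in the replicate sets and did not pass across all genes in any alternative. Of 3180 values of 139 genes under the alternatives, 3136 kept their direction and their side of the threshold, 27 passed it and 17, of 9 genes, changed sign, none of them past the threshold. Within replicates 3 and 4 these were Col10a1 (−0.84), Myb (−0.25), Tie1 (−0.16) and Ghr (0.062). Within replicates 1 and 2 they were H2-Ob (0.0041), Myh2 (−0.07) and Lipe (−0.078). With the mean over probe sets they were Fkbp5 (−0.012) and Lipe (−0.25), and with quantile normalization Col1a2 (0.10). Leaving out 1 mouse moved H2-Ob between −0.55 and 0.020, Myh2 between −0.29 and 0.55 and Lipe between −0.073 and 0.14. The cause was not tested. With 4 mice a group, small differences in dim genes are out of reach.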
